A study of Mus musculus with 19 samples.

Results

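The NRF2 antioxidant response was examined through 10 genes in mouse liver after deletion of Raly: Nfe2l2, Keap1, Nqo1, Gclc, Gclm, Hmox1, Txnrd1, Srxn1, Slc7a11 and Ephx1. They were taken by their symbols from an RNA-seq table of 24054 genes, and all 10 were found in it. Nfe2l2 encodes NRF2, a transcription factor that KEAP1 holds in the cytoplasm and passes to a ubiquitin ligase for degradation. When electrophiles or oxidants modify KEAP1, NRF2 accumulates, pairs with a small MAF protein in the nucleus and binds antioxidant response elements, while BACH1 competes for the same elements. In liver the pathway is known for raising glutathione synthesis, thioredoxin recycling, quinone and epoxide detoxification and heme breakdown.

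All mice carried Raly alleles with loxP sites around exons 3 and 4 (Raly flox/flox) on a C57BL/6 background and were fed chow. They were male unless otherwise stated in the methods. L-RalyKO mice received AAV8.TBG.Cre and controls received AAV8.TBG.GFP, both under the hepatocyte TBG promoter, and livers were taken 4 weeks later. The labels call the controls wild type, although they carry the floxed alleles and the GFP virus, and age is not given in the sources used here. RNA-seq of 3 L-RalyKO and 3 control mice was analysed, whereas a figure legend of the study gives 4 per group for its liver RNA-seq. RALY is a heterogeneous nuclear ribonucleoprotein, and the study asked how its loss changes liver gene expression. Whole liver was sequenced while the virus acts in hepatocytes, so fewer cells of a type and less RNA per cell cannot be told apart.

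None of the 9 members that could be tested passed the test for a difference between L-RalyKO and control livers. Their log2 fold changes, on log2(normalised read count + 1), lay between -0.11 and 0.15. The 95% intervals of all 9 lay between -0.38 and 0.42, so that on this scale none reached beyond a 1.34-fold change in either direction. The scale understates the change of genes with low counts, such as Nqo1. Among the other genes of the pathway, the small MAF genes Mafg and Mafk, the repressor Bach1 and the glutathione transferases Gstp1 and Gstm3 rose, and Bach2 and the iron exporter gene Slc40a1 fell. These 7 were the genes called by limma among 77 tested pathway genes, or 9.09%, beside 6.55% of all 11580 genes tested. The calls of Mafk, Bach1 and Bach2 were lost under several other settings, and without control mouse 1 the count was 4 of the pathway and 369 of all genes, in place of 758.

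The libraries held 28302983 to 37132274 reads in controls and 34660211 to 38052705 in L-RalyKO mice. Values are normalised read counts, that is, reads per 1000000 reads of a library's effective size, not divided by gene length. Between mice of 1 group the chi-square per degree of freedom, which allows for counting noise only, was 12.6 to 27.4 among pairs without control mouse 1. It was 71.1 and 84.3 for the pairs that include control mouse 1. Raly fell from 48.5 ± 1.67 to 6.78 ± 0.55 (SD, n = 3 mice per group; log2 fold change -2.67, SE 0.069). Hepatocyte markers summed to 80616 to 89631 in controls and 90395 to 91588 in L-RalyKO, and limma and edgeR called 1 of 6 higher (Hnf4a), DESeq2 called 3 (Apoa1, Cps1 and Hnf4a, all higher), and 3 had an unadjusted p under 0.05 in limma. In the lists for macrophages and Kupffer cells, endothelial, stellate, cholangiocyte and erythroid cells no marker passed limma's test or edgeR's, 2 had an unadjusted p under 0.05, and DESeq2 called 1. Of all genes, limma called 758 (6.55%) and DESeq2 1088, and 22.7% had an unadjusted p under 0.05 in limma. In the adipocyte list Plin4, also expressed outside fat, was lower, while Adipoq, Lep, Retn and Plin1 were at 0 to 0.21 in every mouse. Lep (0.21, 7 reads) and Retn (0.15, 5 reads) were detected only in control mouse 1, where Adipoq was also highest (0.12). Plin1 was highest in control mouse 2 (0.07). Neutrophil markers summed to at most 0.84.

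The promoters of the members were searched for the core of the antioxidant response element, the letters TGACNNNGC (GCNNNGTCA on the other strand), because NRF2 dimers bind there. The first letters of this core are shared with the AP-1 motif TGACTCA. RefSeq windows of 300 bases, 250 before to 50 after a gene's start (GRCm38.p6), were matched by symbol for 8 of 10 members (not Gclc or Hmox1), and 4 of these 8 genes had a match, against 14.0% of 27025 genes with a window. In windows, that was 4 of 10, against 12.4% of 32851. The matches are shown here for Nfe2l2, Gclm, Srxn1 and Txnrd1, and for the small MAF genes Mafg and Mafk because those were higher in L-RalyKO. The stretches are on each gene's own strand, found as exact matches in mm9, with the core letters in capitals.
Nfe2l2 (chr2:75542942-75542970, minus strand): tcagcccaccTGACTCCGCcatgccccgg
Gclm (chr3:121948331-121948359, plus strand): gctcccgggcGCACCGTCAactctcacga
Srxn1 (chr2:151931278-151931306, plus strand): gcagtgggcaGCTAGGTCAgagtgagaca
Txnrd1 (chr10:82321849-82321877, plus strand): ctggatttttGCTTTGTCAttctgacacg
Mafg (chr11:120495065-120495093, minus strand): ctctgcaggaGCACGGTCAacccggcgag
Mafk (chr5:140267467-140267495, plus strand): gatcccggaaGCGGTGTCAgtactgggga
The core began 240 bases before the start in Nfe2l2, 134 before it in Gclm and 92 before it in 1 of the 3 windows of Txnrd1. In Srxn1 it began at base 29 after the start. The core was read on the gene's own strand in Nfe2l2 and on the opposite strand in Gclm, Srxn1 and Txnrd1. In the GENCODE vM1 annotation (NCBIM37, mm9) the Nfe2l2 and Gclm stretches lie outside these genes, the former within the gene E030042O20Rik, that of Srxn1 lies in its UTR and that of Txnrd1 in an intron. In the pathway lists 18 of the 71 genes with a window had a match. The windows of Keap1, Nqo1, Slc7a11, Ephx1, Bach1, Bach2, Gstp1 and Gstm3 did not hold these letters. Sequence farther from the start was not searched, so these genes may have the element elsewhere. By GENCODE the windows of Ephx1 and Bach2 lie inside the genes and not at their outermost start. No window result is given for Slc40a1. A match is a description of the letters and not a measured binding site.

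The factor and its sensor come first. Nfe2l2 (chromosome 2, 75513570 to 75542698, minus strand) had normalised read counts of 89.2, 83.4 and 73.3 in the 3 controls and of 79.1, 79.5 and 71.1 in the 3 L-RalyKO mice. The groups overlap, since control mouse 3 lies below 2 of the L-RalyKO mice. The log2 fold change was -0.09 (SE 0.078, 95% interval -0.27 to 0.08, limma adjusted p = 0.525). Keap1 (chromosome 9, 21034174 to 21043776, minus strand) had 55.4, 56.8 and 59.5 in controls and 54.7, 50.9 and 54.8 in L-RalyKO. No L-RalyKO mouse reached the lowest control, and Keap1 was the only member whose groups did not overlap, as was the case for 28.1% of the 11580 genes tested. Its difference was small, a log2 fold change of -0.10 (SE 0.053, 95% interval -0.22 to 0.02), with a limma adjusted p of 0.326, the lowest of the members. The two-sided exact permutation test gave p = 0.1 for Keap1, the smallest that 3 against 3 mice allow. A U6 snRNA gene overlaps Nfe2l2 on its own strand. A noncoding gene on the opposite strand, Gm16754, overlaps Keap1, and whether reads were counted by strand is not given in the sources used here.

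**Figure D1:**
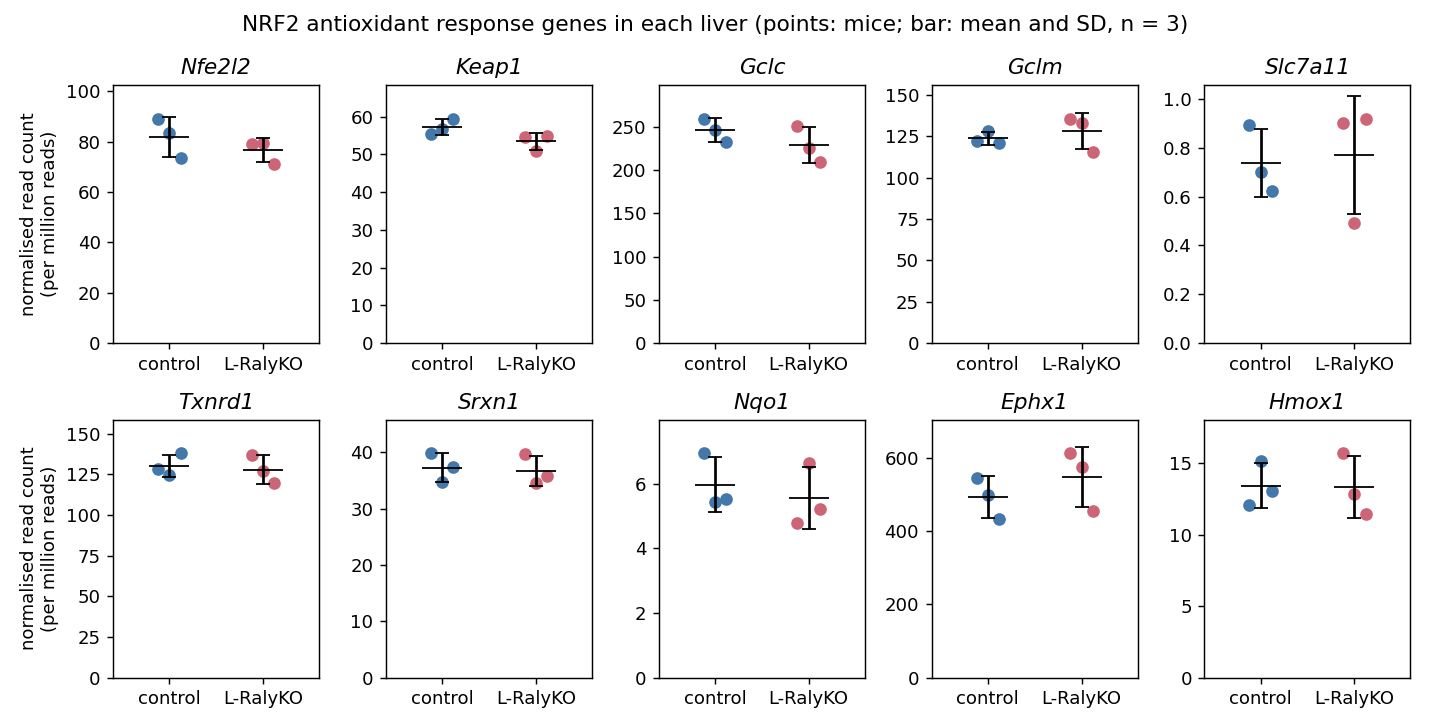
Normalised read counts (reads per 1000000 of effective library size, linear axes from 0) of the 10 members, with 1 point per mouse, controls in blue and L-RalyKO in red, and bars for the mean and SD of 3 mice. Keap1 is the only panel in which the groups do not overlap, with 55.4 to 59.5 in controls and 50.9 to 54.8 in L-RalyKO.

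Glutathione synthesis begins with glutamate-cysteine ligase, a dimer of the catalytic subunit GCLC and the modifier subunit GCLM. Gclc (chromosome 9, 77602342 to 77642292, plus strand) had normalised read counts of 260, 247 and 233 in controls and of 251, 226 and 210 in L-RalyKO, overlapping through L-RalyKO mouse 1. Its log2 fold change was -0.11 (SE 0.072, 95% interval -0.27 to 0.05, limma adjusted p = 0.412), the lowest of the 9. Gclm (chromosome 3, 121948475 to 121972902, plus strand) had 122, 128 and 121 in controls and 136, 133 and 116 in L-RalyKO, where the third mouse was the lowest of all 6. Its log2 fold change was 0.05 (SE 0.067, 95% interval -0.10 to 0.20, limma adjusted p = 0.728). The noncoding gene Gm17494 overlaps Gclm on the opposite strand.

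Slc7a11 encodes the transport subunit of the cystine/glutamate exchanger, which imports the cystine for glutathione. It was barely detected (chromosome 3, 50168858 to 50247535, minus strand), with normalised read counts of 0.89, 0.70 and 0.62 in controls and 0.90, 0.49 and 0.92 in L-RalyKO. These values rest on 17 to 35 reads per mouse, and the groups overlap fully. Slc7a11 was the only member under the mean value of 1 that the main test required. Where the minimum was lowered to 0.1, its log2 fold change was 0.02 (adjusted p = 0.9496).

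Thioredoxin reductase 1, encoded by Txnrd1, returns oxidised thioredoxin to its active form with NADPH, and sulfiredoxin 1, encoded by Srxn1, repairs overoxidised peroxiredoxins. Txnrd1 (chromosome 10, 82296696 to 82360469, plus strand) had normalised read counts of 129, 125 and 138 in controls and of 137, 127 and 120 in L-RalyKO. The 2 groups cover nearly the same range, and the log2 fold change was -0.03 (SE 0.063, 95% interval -0.17 to 0.12, limma adjusted p = 0.848). Srxn1 (chromosome 2, 151931252 to 151937112, plus strand) had 39.8, 34.7 and 37.4 in controls and 39.6, 34.5 and 35.8 in L-RalyKO. The highest and the lowest mouse of each group almost coincide, and the log2 fold change was -0.02 (SE 0.072, 95% interval -0.19 to 0.14, limma adjusted p = 0.882). The sign of these small differences turned when 1 mouse was left out. Txnrd1 had 0.01 without control mouse 3 and 0.02 without L-RalyKO mouse 3, and Srxn1 had 0.02 without control mouse 1 and 0.02 without L-RalyKO mouse 2.

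The last group are enzymes of detoxification. Nqo1, whose product reduces quinones by a transfer of electron pairs and is widely used as a readout of NRF2, was expressed at a low level (chromosome 8, 109912125 to 109927106, minus strand). Its normalised read counts were 6.94, 5.43 and 5.54 in controls and 4.80, 6.64 and 5.24 in L-RalyKO, from 155 to 233 reads per mouse. The groups overlap, and the log2 fold change of -0.09 had the widest standard error of the members (SE 0.127, 95% interval -0.38 to 0.20, limma adjusted p = 0.726), and was 0.01 without control mouse 1. Ephx1, the microsomal epoxide hydrolase, was the most abundant member (chromosome 1, 182906286 to 182951035, minus strand). It had 546, 500 and 433 in controls and 612, 575 and 456 in L-RalyKO. Within each group the values spread over more than the distance between the means, and the log2 fold change was 0.15 (SE 0.119, 95% interval -0.12 to 0.42, limma adjusted p = 0.511), the highest of the 9.

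Hmox1 encodes heme oxygenase 1, which opens the heme ring and is also high in macrophages that take up red cells. Its normalised read counts (chromosome 8, 77617490 to 77624495, plus strand) were 12.04, 15.1 and 13.1 in controls and 15.7, 12.8 and 11.4 in L-RalyKO. The highest and the lowest value of Hmox1 both belong to L-RalyKO mice, and the log2 fold change was -0.01 (SE 0.119, 95% interval -0.29 to 0.26, limma adjusted p = 0.959). It was 0.07 without control mouse 2, 0.00 without L-RalyKO mouse 2 and 0.08 without L-RalyKO mouse 3. The 9 macrophage and Kupffer cell markers in the table summed to 175, 263 and 216 in controls and to 237, 183 and 224 in L-RalyKO. In each group the mouse with the highest sum also had the highest Hmox1 value, but L-RalyKO mouse 3, with the middle sum of its group, had the lowest Hmox1 value of all 6 mice. None of these 9 markers was called by limma, edgeR or DESeq2, 0 had an unadjusted p under 0.05 in limma, and their part in the Hmox1 values was not tested.

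**Figure D2:**
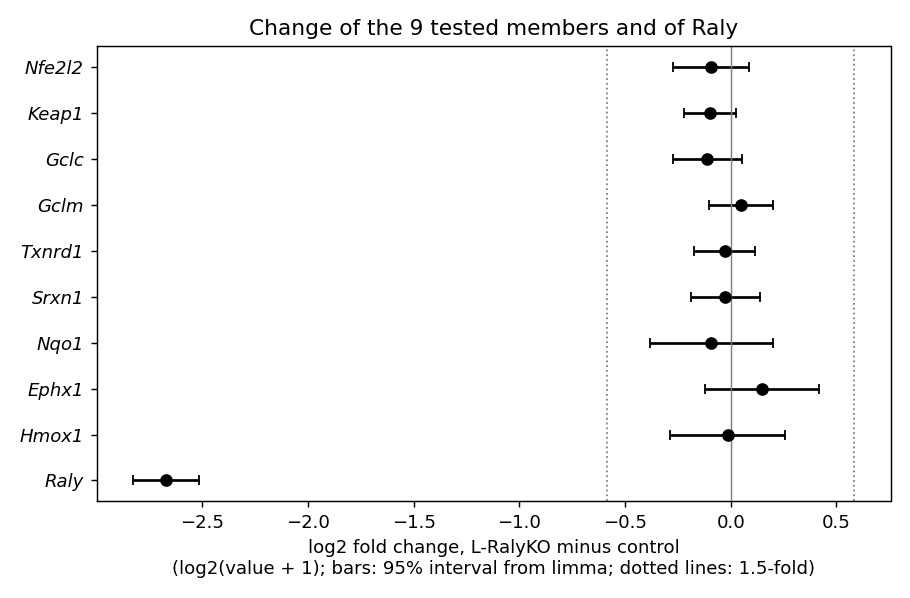
Log2 fold change (L-RalyKO minus control, on the log2(value + 1) scale) of the 9 tested members and of Raly, with 95% intervals from limma as bars and dotted lines at 1.5-fold in either direction. All 9 member intervals include 0 and lie within the dotted lines, between -0.38 and 0.42, whereas Raly lies at -2.67.

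Across the 9 tested members, none was called by limma at an adjusted p under 0.05, against 6.55% of the 11580 genes tested (3.36% higher and 3.19% lower in L-RalyKO). None had an unadjusted p under 0.05, against 22.7% of all genes tested, and edgeR's quasi-likelihood test and DESeq2 on the recovered reads also called 0 of 9. Of the log2 fold changes, 7 were negative and 2 positive, with a median of -0.03 beside 0.00 over all genes tested. The median size of the change, regardless of sign, was 0.0916 for the members and 0.0954 for all genes tested, and the median standard error was 0.0723 and 0.0791. L-RalyKO mouse 3 had the lowest value of all 6 mice in 5 of the 10 members (Nfe2l2, Gclc, Gclm, Hmox1 and Txnrd1), and L-RalyKO mouse 2 in 3 (Keap1, Srxn1 and Slc7a11). In Nqo1 the lowest value belonged to L-RalyKO mouse 1, and in Ephx1 to control mouse 3. The highest value belonged to control mouse 1 in 4 members, to control mouse 3 in 2, to L-RalyKO mouse 1 in 3 and to L-RalyKO mouse 3 in 1.

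Levels of different genes were set side by side per length, taking all annotated exons of a gene together. Which transcripts the livers expressed was not determined, and with other lengths the order could differ. Per kilobase of annotated exon, the control means of the normalised read count ran from 246 ± 28.3 for Ephx1 over 72.0 ± 3.94 for Gclc, 32.4 ± 1.72 for Txnrd1, 24.1 ± 0.74 for Gclm and 21.6 ± 2.11 for Nfe2l2 to 13.2 ± 0.91 for Srxn1 and 12.8 ± 0.46 for Keap1 (SD, n = 3). Hmox1 followed with 6.20 ± 0.72, Nqo1 with 3.85 ± 0.54 and Slc7a11 with 0.0657 ± 0.0125. Only Srxn1 and Keap1, neighbours in this order, overlapped among the 3 controls. Between Nqo1 and Slc7a11 the step was 58.5-fold, the widest between neighbours. Part of it comes from the exon lengths, 1553 bases for Nqo1 and 11245 for Slc7a11. Without division by length their control means were 5.97 and 0.74. The catalytic subunit gene Gclc was read more densely than the modifier subunit gene Gclm in all 3 controls.

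**Figure D3:**
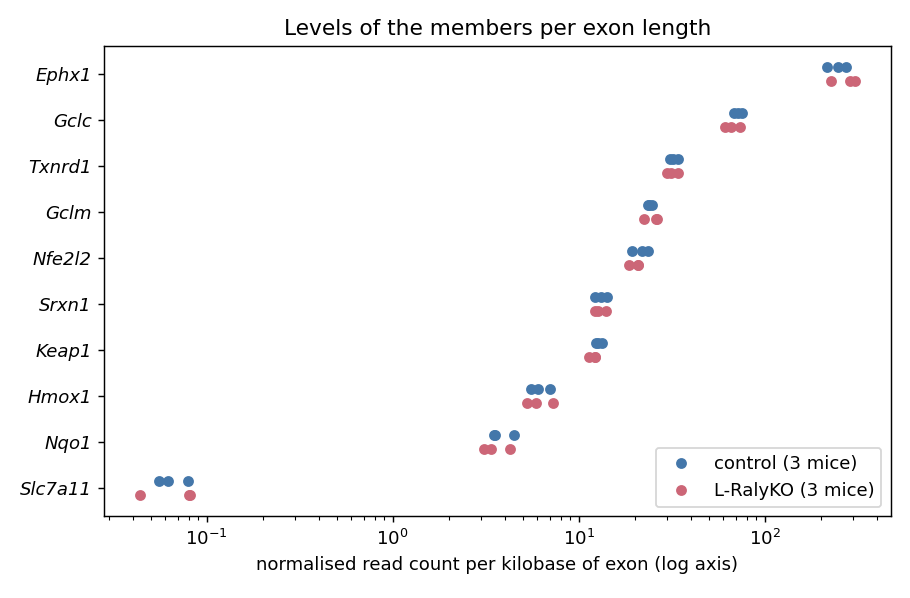
Normalised read count per kilobase of annotated exon (log axis) of the 10 members, ordered by their control mean, with 1 point per mouse, controls in blue and L-RalyKO in red. The order runs from Ephx1 at 246 to Slc7a11 at 0.0657 in controls. Red and blue points overlap in every row but that of Keap1, where the red points lie below the blue ones.

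Outside the members, 81 genes of the pathway were arranged in 7 lists, of which 77 genes could be tested. Limma called 7 of the 77 (9.09%, beside 6.55% of all genes), 5 higher and 2 lower. When 1 mouse was left out the counts ran from 4 to 8 in the pathway and from 332 to 813 among all genes. Their median log2 fold change was 0.03, beside 0.00 for all genes, with 46 positive and 31 negative. An unadjusted p under 0.05 was found for 28 of the 77 (36.4%, beside 22.7% of all genes). In 26 of the 77 the groups did not overlap (28.1% of all genes).

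The partners and regulators of NRF2 held 3 of the 7 calls, all higher, among 10 tested genes (30.0%, beside 6.55% of all genes tested). Of the 10, 9 had a positive log2 fold change, and the median was 0.07, beside 0.00 for all genes tested. Bach2, which was lower, had been placed in the heme and iron list instead. DESeq2 called 2 in the list of partners, not Mafk (DESeq2 adjusted p = 0.0518), beside 1088 of all genes. Mafg encodes a small MAF protein with which NRF2 binds DNA. Its normalised read counts were 29.9, 32.1 and 31.4 in controls and 42.0, 40.3 and 37.9 in L-RalyKO, a log2 fold change of 0.35 (SE 0.058, limma adjusted p = 0.0111). Mafk, the other small MAF that passed, had 13.8, 14.6 and 14.4 in controls and 17.9, 17.7 and 16.5 in L-RalyKO (log2 fold change 0.27, SE 0.062, limma adjusted p = 0.0410). Each L-RalyKO mouse exceeded each control in both genes. For the third small MAF gene, Maff, the log2 fold change was 0.02 (limma adjusted p = 0.962). It was named, like Osgin1 and Sqstm1 below, after its values were seen. Mafk is overlapped on the opposite strand by Tmem184a, which went the other way (log2 fold change -0.39, limma adjusted p = 0.0471). Bach1, the heme-sensing repressor that competes with NRF2 at its elements, had 48.5, 56.1 and 57.7 in controls and 69.9, 83.1 and 65.0 in L-RalyKO. That is a log2 fold change of 0.42 (SE 0.098, limma adjusted p = 0.0430), with no overlap. Sqstm1, an adaptor that can draw KEAP1 into autophagy, was the only one of the 10 with a negative value, -0.11 (adjusted p = 0.330).

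The calls of Mafk and Bach1 were close to the threshold. Mafk was called in 3 and Bach1 in 9 of 15 alternative settings. Without control mouse 1 the adjusted p was 0.127 for either gene, and Bach1 also lost its call without control mouse 2 (0.0767), L-RalyKO mouse 1 (0.0998) and L-RalyKO mouse 2 (0.0958). Mafk was not called when any 1 mouse was left out, with adjusted p values of 0.0563 to 0.141. Mafg kept its call in all 15 settings, up to an adjusted p of 0.0495 without L-RalyKO mouse 1. Mafg and Mafk, whose core letters were shown above, had them 222 and 13 bases before the start, on the opposite strand. By GENCODE the Mafg stretch lies outside that gene and within Gm17586, and the Mafk stretch lies in a UTR of Mafk. Mafg has more than 1 gene entry in GENCODE vM1, so no gene coordinates are given for it.

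Of 16 tested glutathione genes limma and edgeR called 2, both higher and both cytosolic glutathione S-transferases, which couple glutathione to electrophiles. DESeq2 called 5 in this list, adding Gstm1 and Gstm2 (higher) and Mgst3 (lower). Of all genes, limma called 758 (6.55%) and DESeq2 1088. With a replicate block by mouse number limma also called Gstm2 and Mgst3. Gstp1 had normalised read counts of 865, 810 and 932 in controls and of 1552, 1334 and 1382 in L-RalyKO, and its log2 fold change of 0.71 (SE 0.077, limma adjusted p = 0.00196) corresponds to 1.64-fold. Gstm3 had 43.0, 37.2 and 36.0 in controls and 106, 90.7 and 69.4 in L-RalyKO. Its log2 fold change of 1.16 (SE 0.139, limma adjusted p = 0.00312), or 2.23-fold, was the largest of the 77. The groups do not overlap in either gene. These assignments carry some uncertainty between relatives, because 67.5% of the 50-base words of Gstp1 also occur in Gstp2 and 15.3% of those of Gstm3 in other genes (9.46% in Gstm1). In the annotation Gstm6 and the pseudogene Gm12494 overlap Gstm3. Gstp2 itself had values of 2.28 to 4.65 in controls and 4.71 to 5.24 in L-RalyKO (adjusted p = 0.167). Gstm1, read far more than Gstm3, had means of 1357 in controls and 1670.4 in L-RalyKO (log2 fold change 0.29, limma adjusted p = 0.108). Gstm6 had 70.0 to 84.2 in controls and 83.8 to 106 in L-RalyKO (adjusted p = 0.121).

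Limma and edgeR called 2 of 9 heme and iron genes, both lower, where limma called 6.55% of all genes tested. DESeq2 called 4 of the 9, adding Ftl1 and Hpx, both higher, beside 1088 of all genes. Slc40a1 encodes ferroportin, the exporter of iron from cells. It had normalised read counts of 172, 181 and 194 in controls and of 136, 135 and 123 in L-RalyKO, a log2 fold change of -0.47 (SE 0.062, limma adjusted p = 0.00488). Bach2, a relative of BACH1 best known from lymphocytes, had 13.2, 6.59 and 10.3 in controls and 3.72, 4.58 and 5.37 in L-RalyKO, a log2 fold change of -0.95 (SE 0.211, limma adjusted p = 0.0349). In the annotation Bach2 is overlapped by D130062J21Rik, Gm11932 and a 7SK gene on its own strand and by BC024582 on the other. No L-RalyKO value of either Slc40a1 or Bach2 reached the lowest control. Bach2 was not called without control mouse 1 (0.0891), control mouse 3 (0.0728), L-RalyKO mouse 1 (0.113), mouse 2 (0.0914) or mouse 3 (0.0555). The lymphocyte markers summed to only 1.49 to 2.91 in controls and 1.48 to 1.97 in L-RalyKO and their part in the Bach2 values was not tested.

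The remaining lists held no call by the main limma test or by edgeR. They were thioredoxin and peroxide removal (14 tested genes, 4 with an unadjusted p under 0.05, 0 called by DESeq2), NADPH supply (6 tested, 2 unadjusted, 1 by DESeq2), quinone, aldehyde and conjugation enzymes (16 tested, 4 unadjusted, 1 by DESeq2) and efflux transporters (6 tested, 2 unadjusted, 0 by DESeq2). Among all genes, 22.7% of those tested had an unadjusted p under 0.05 in limma, and DESeq2 called 1088. The NADPH list had the lowest median log2 fold change of the 7 lists, -0.19, with 4 negative and 2 positive genes. In the 4 negative ones, Pgd, Taldo1, Tkt and Me1, control mouse 1 had the highest value of all mice. Just outside the threshold was Osgin1, a growth inhibitor induced by oxidative stress, with normalised read counts of 31.8, 46.6 and 25.8 in controls and 57.5, 76.7 and 51.0 in L-RalyKO. Its log2 fold change of 0.83 had an SE of 0.208 and a limma adjusted p of 0.0506, and the groups do not overlap. When 1 mouse was left out the adjusted p was 0.0164 without control mouse 2 and 0.0629 to 0.147 without each of the others. With a replicate block by mouse number limma called Osgin1 (adjusted p = 0.0025) and, in the NADPH list, Me1, although the numbers share no animal.

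**Figure D4:**
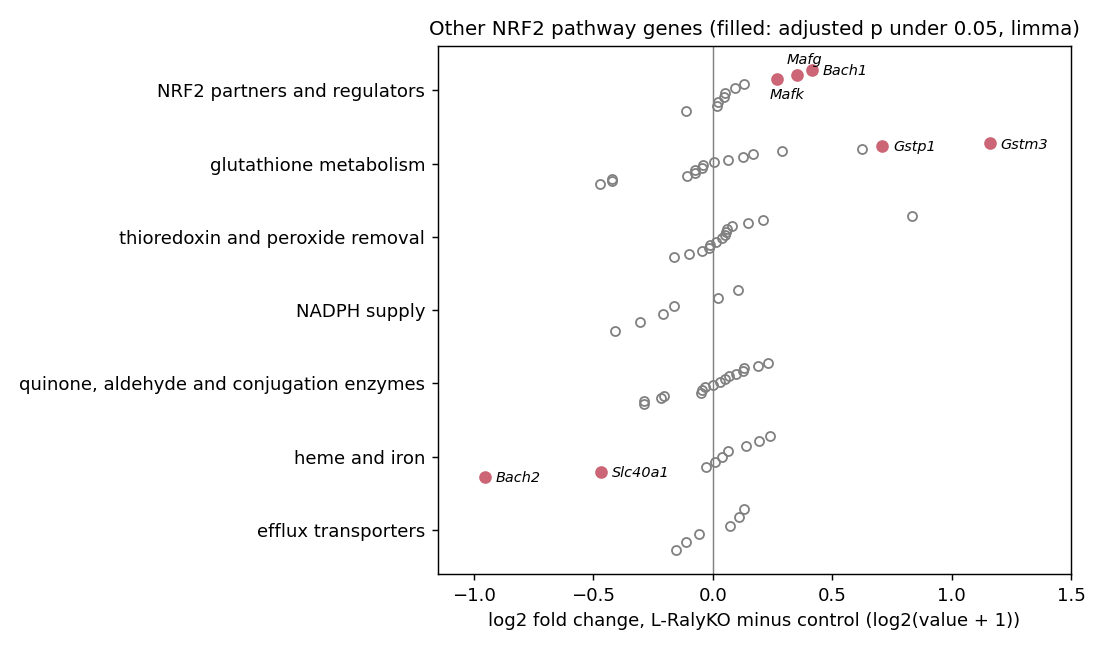
Log2 fold change (L-RalyKO minus control, on the log2(value + 1) scale) of the 77 tested genes in 7 lists of NRF2 pathway genes, 1 point per gene, with filled and named points for an adjusted p under 0.05. The 7 filled points are in 3 lists, and run from -0.95 for Bach2 to 1.16 for Gstm3.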

How the data were processed

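The deposited RNA-seq table of 3 L-RalyKO and 3 control livers was used. The methods name stranded libraries, TopHat, mm9 and Cufflinks v2.0.2. The methods describe a comparison of FPKM values with Cuffdiff, whereas the deposited values are not FPKM. How reads were counted for this table is not given in the sources used here. The values the authors deposited are a normalised signal, namely read counts over effective library size. All were whole multiples of 1 read (tolerance 0.01), and the scaling was the same as edgeR's TMM. The ATAC-seq and ChIP-seq samples (13 of 19) were not analysed here.

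Groups were compared with limma 3.58.1 (R 4.3.3, intensity trend) on log2(value + 1) over the 11580 genes whose mean reached 1, and p-values were adjusted by Benjamini-Hochberg. A fold change is on that scale and understates the change of low genes. A value of 3 reads was 0.0789 to 0.105. Alternatives were other filters, pseudocount 0.1, total and upper-quartile scaling, no trend, edgeR 4.0.16 and DESeq2 1.42.0 on recovered reads, a replicate block and leaving out each mouse. The tests were first tested on simulated data. Members and lists were chosen with earlier results of these data known. The genes named are the members, Raly and every listed gene called, and others were named after their values were seen. Coordinates and exon lengths are from GENCODE vM1 (NCBIM37).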

Additional observations from a re-analysis of the deposited data

How the results depend on the processing

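No tested member was called in any of the 15 alternative settings, and Raly stayed between -2.84 and -2.63. Leaving out 1 mouse turned the sign of small, uncalled member differences, with ranges of -0.207 to 0.0058 for Nqo1, -0.131 to 0.0817 for Hmox1, -0.0784 to 0.0188 for Txnrd1 and -0.0810 to 0.0227 for Srxn1, and of -0.0424 to 0.139 for Slc7a11, which was computed in 9 of the 15 settings. The other 5 members kept their sign over ranges of 0.06 to 0.27 for Ephx1, 0.0049 to 0.12 for Gclm, -0.17 to -0.03 for Nfe2l2, -0.18 to -0.05 for Gclc and -0.12 to -0.06 for Keap1. The count of pathway genes called was 7, and was 4 with all genes that had a read, 4 without an intensity trend, 13 with DESeq2 and 4 to 8 when 1 mouse was left out. Of all genes, 758 were called, 484 with all genes that had a read, 536 without an intensity trend, 1088 with DESeq2 and 332 to 813 when 1 mouse was left out (369 without control mouse 1, 332 without L-RalyKO mouse 1, 437 without mouse 2 and 491 without mouse 3). Leaving out a mouse gave fewer mice, and taking all genes that had a read gave more genes tested. The cause of these changes was not tested. With total scaling 324 genes were higher and 469 lower (40.9% higher, beside 51.3% with the deposited scaling). Gstp1, Gstm3, Slc40a1 and Mafg were called in every setting, and Bach2 in 8 of 15.

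A replicate block by the mouse number of the labels gave 0 members, 10 pathway genes and 704 genes called, without Mafk (adjusted p = 0.0744) and with Gstm2, Mgst3, Me1 and Osgin1 (0.0025). The numbers share no animal, and same-numbered mice correlated at 0.066, -0.024 and 0.020, with not every mouse closest to its own number. The number of mice, 3 per group, limits the precision of these results, and depth limits Slc7a11, with its 17 to 35 reads. The labels do not tell which mice were littermates.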
